A study of Caenorhabditis elegans with 80 samples.

Results

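Among the 80 arrays of the experiment, 8 placed one strain on a pair of arrays per temperature. Strain WN38 was hybridised against WN58 and against WN47, and strain WN80 against WN1 and against WN7, at 16 °C and again at 24 °C, so that each of the shared strains had 4 arrays. The arrays were picked by their labels alone: WN58/WN38, WN38/WN47, WN1/WN80 and WN80/WN7, written with the Cy3-labelled strain before the Cy5-labelled one. All are recombinant inbred (RI) strains from the cross of N2 (Bristol) with CB4856 (Hawaii), made homozygous by repeated selfing, so each carries a fixed mosaic of both parental genomes. Worms were whole L3 larvae, collected after 72 h at 16 °C or 40 h at 24 °C. The strains paired on an array had been selected for genetic distance, so a partner is no wild-type control. Each strain was 1 inbred line, and arrays of one strain at one temperature are not stated to come from separate cultures. P-values and SEs of the mean over a strain's 4 arrays rest on how a pair's ratio varied between 16 °C and 24 °C, pooled over all 80 arrays. This spread may be partly technical, and it leaves out the difference between a strain's partners. An SE given with n = 4 arrays therefore uses the pooled spread and does not describe the scatter of those 4 values.

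In an RI panel, a transcript whose level follows the parental allele at its own gene or at a distant regulator differs between 2 strains wherever they carry different alleles there. A strain that sits on opposite dyes on its arrays gives such a transcript opposite signs, whereas a dye effect keeps 1 sign. C. elegans has large families of F-box, MATH and BTB domain proteins, which serve as substrate adaptors of ubiquitin ligases, and of C-type lectins, many of which respond to infection. Members of these families are known to vary strongly among wild strains.

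Every value below is a turned ratio, which is the deposited log2 ratio where the shared strain was on Cy5 and the same ratio times -1 where it was on Cy3. It is positive where the transcript was higher in the shared strain than in its partner if the deposited ratio is Cy5 over Cy3, and lower if it is Cy3 over Cy5. The dye in the numerator is not given in the sources used here, so sizes and signs are reported without naming the higher strain. The arrays had been scaled to 1 spread per temperature, with a median absolute ratio of 0.59 at 16 °C and 0.66 at 24 °C on all 8, and single ratios reached 16.89, so sizes are on a scaled log2 axis and are not converted to folds. The ratios hold no level, so the labelled stage cannot be checked by the presence or absence of transcripts. A base difference beneath a 60-mer probe and a difference in transcript level would give the same ratio and cannot be told apart here. One array stood apart: WN58/WN38 at 24 °C had an SD of 1.65 over all probes, against 1.14 to 1.38 on the other 7, and the counts led with below are also given without it.

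Which transcripts were particular to WN38 at both temperatures and against both partners? Of 23232 probes, 298 (1.28%) had a mean turned ratio over the 4 WN38 arrays that differed from 0 (limma, Benjamini-Hochberg adjusted p below 0.05 over all probes). Of these, 247 also had 1 sign on all 4 arrays and are called WN38-specific hereafter, relative to its partners. They are 1.06% of all probes. In comparison, 4057 probes (17.5%) had 1 turned sign on the 4 arrays with or without passing the test. The 247 probes comprised 102 positive (0.439% of all probes) and 145 negative ones (0.624%), 212 carried a gene name, and they named 206 genes. Their absolute mean turned ratio ranged from 1.00 to 10.59 with a median of 3.16, against 0.39 over all probes. The count depended on single arrays. It was 382 without WN58/WN38 at 16 °C, 108 without WN38/WN47 at 16 °C, 115 without WN58/WN38 at 24 °C and 199 without WN38/WN47 at 24 °C. A group of 44 probes, 40 of them with a gene name, passed with all 4 arrays and again in each of these 4 subsets. In a stricter form of the comparison, in which WN58/WN38 and WN38/WN47 each had to pass on its own, 21 probes (0.0904%) remained, all among the 247 and 20 of them among the 44.

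The strongest signals came from the chromosome V genes pud-2.1 and pud-2.2, whose proteins are known to be raised in daf-2 insulin receptor mutants, and from F19B2.5, also on chromosome V. The turned ratios of pud-2.2 were -8.90 and -11.16 at 16 °C and -13.63 and -6.66 at 24 °C, with WN58/WN38 first and WN38/WN47 second at each temperature, as in all lists of 4 values for WN38. The mean was -10.09 ± 0.89 (SE, n = 4 arrays; limma adjusted p = 3.6e-10). Its paralog pud-2.1 gave -9.57, -10.74, -14.29 and -6.33 with a mean of -10.23 ± 0.98 (limma adjusted p = 2.6e-09). All 8 values of the 2 genes thus lay far from 0 on one side, and on both the value furthest from 0 came from WN58/WN38 at 24 °C. The paralogs are similar in sequence and their probes may bind the same transcripts, which was not tested. The remaining measured member, pud-4, had a mean of -3.87 ± 1.66 and did not pass (limma adjusted p = 0.37). For F19B2.5 the 4 ratios were -8.19, -11.18, -16.89 and -6.11, with a mean of -10.59 ± 1.44 (limma adjusted p = 8.9e-06).

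Another 12 genes complete the 15 with the largest WN38 mean. The negative ones were sdz-24, a gene named for its SKN-1-dependent zygotic transcript (mean -7.89), the F-box gene fbxa-156 (-7.78), ZK1240.3 (-7.78), ZK1025.3 (-7.40), ZC204.12 (-6.63), the chemoreceptor gene srw-85 (-6.63), M04C3.2 (-6.28) and cct-3, which encodes a subunit of the cytosolic chaperonin (-6.21). The positive ones were B0281.5 (7.78), R07C12.2 (7.41) and the C-type lectin genes clec-76 (7.02) and clec-72 (6.52). Their spread over the arrays differed. ZK1240.3 ranged from -4.83 to -10.92 and fbxa-156 from -4.56 to -12.98, whereas ZC204.12 ranged from -1.35 to -11.44 and passed only narrowly (limma adjusted p = 0.036). For srw-85 and M04C3.2 the weakest ratios, -3.0 and -1.93, both came from WN58/WN38 at 16 °C and the strongest, -11.03 and -10.50, from the same strains at 24 °C. Of the 15 genes, 10 were among the 44 probes that held in every subset. The other 5 were sdz-24, B0281.5, srw-85, M04C3.2 and ZC204.12. Without WN58/WN38 at 24 °C the adjusted p (limma) became 0.057 for sdz-24, 0.11 for srw-85, 0.17 for M04C3.2 and 0.56 for ZC204.12, and without WN38/WN47 at 16 °C it became 0.071 for B0281.5. After removal of the first 2 principal components, clec-76 (limma adjusted p = 0.08) and ZC204.12 (0.24) did not pass.

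**Figure D1:**
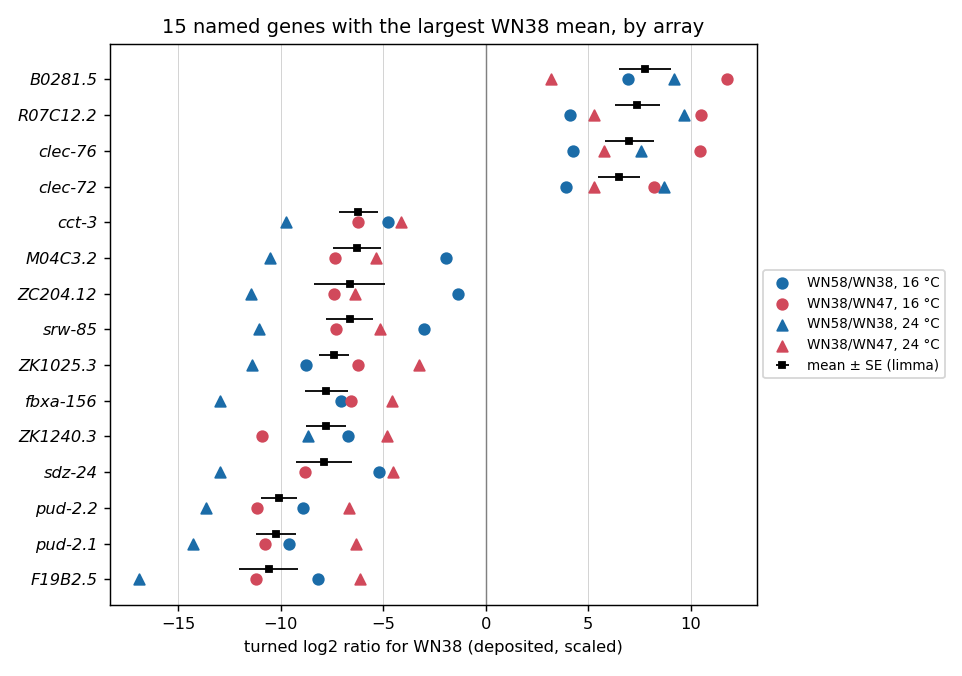
Turned log2 ratios (horizontal axis, deposited scaled units) of the 15 named genes with the largest WN38 mean, with one coloured symbol per array and a black square for the mean with its limma SE. All 4 symbols of each gene lie on one side of 0, and the value furthest from 0 is WN58/WN38 at 24 °C in 11 of the genes or WN38/WN47 at 16 °C in the others.

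The other strain pairs gave a view of these genes on arrays that carried neither WN38 nor WN80. Over the 35 other pairs hybridised at both temperatures, 183 probes (0.788%) had ratios at 16 °C and 24 °C that correlated positively across pairs (adjusted p below 0.05 over all probes), which marks a repeatable strain difference. Of the 247 WN38-specific probes, 90 (36.4%) were among the 183, and they made up 49.2% of them. With WN58/WN38 at 24 °C left out it was 38 of 115 (33%), which made up 20.8% of the 183. The SD over the 35 pairs had a median of 1.53 for the 247 probes and 0.79 for all probes. These pairs also entered the estimate of spread used to call the 247, so the share is not wholly separate from the call. The sign alone does not use that estimate, and 122 of the 183 repeatable probes (66.7%) had 1 turned sign on the 4 WN38 arrays. The share over all probes was 17.5%. The 183 were picked because their ratios repeat between temperatures, so both arrays of a pair tend to share a sign. The share over all probes is therefore no like baseline for them. Across the 183 probes the turned ratios of the 4 WN38 arrays correlated pairwise with r from 0.66 to 0.879, and over all probes with r from -0.0533 to 0.197. These correlations are across probes, which are not independent replicates, and arrays of one pair also share their partner.

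Differences of at least 0.5 times this size also appeared in pairs without WN38. For 219 of the 247 probes, at least 5 of the 35 other pairs reached that bound, after each probe's mean over those pairs was taken out. The bound follows the WN38 mean, so a probe with a small mean is easily reached, as npr-1 by 29 pairs. The share over all probes was not counted, so 219 is not read as a trait of the 247. Ratios of single pairs also rest on fewer arrays than the WN38 mean. It held for 63 of 115 probes, and 11 were reached by no pair, when WN58/WN38 at 24 °C was left out. For pud-2.2 it was 12 pairs, with ratios from -10.08 to 9.15 and a median of -0.14. F19B2.5 was reached by 15 pairs and ranged from -9.61 to 10.10. The ratios of clec-76 ranged from -7.22 to 8.31 and 14 pairs reached the bound. ZK1025.3 was reached by 7 pairs only. There were 4 probes that no pair reached, and 3 of them had a gene name. These were rbm-28, an RNA-binding protein gene on chromosome II, bgnt-1.7 on chromosome I and F36H5.4 on chromosome II.

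The ratios of rbm-28 were -3.17, -3.08, -3.02 and -1.81 (mean -2.77 ± 0.38, n = 4 arrays; limma adjusted p = 1.2e-05), and the 35 other pairs stayed between -0.99 and 1.27. Its probe held in all 4 subsets of arrays and in both strain pairs on their own. The ratios of bgnt-1.7 were 5.71, 1.42, 8.38 and 0.29 (mean 3.95 ± 0.59; limma adjusted p = 4.0e-05), so the 2 arrays against WN58 were far above the 2 against WN47, and the other pairs ranged from -1.7 to 1.82. F36H5.4 gave -1.09, -3.52, -4.52 and -2.80 (mean -2.98 ± 0.53), and it did not pass without WN58/WN38 at 24 °C (limma adjusted p = 0.11). The chemoreceptor gene srg-17 showed the partner pattern of bgnt-1.7, with 5.63 and 6.52 against WN58 and 2.10 and 0.48 against WN47, and 2 of the other pairs reached the bound. A gene of this pattern is called for WN38 although most of its size stems from one partner.

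**Figure D2:**
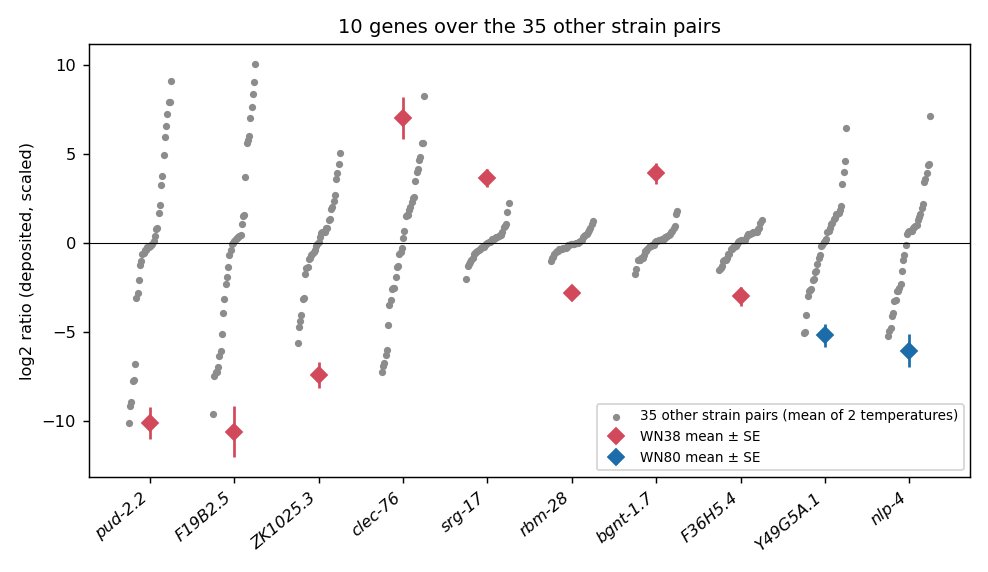
Log2 ratios (vertical axis, deposited scaled units) of 10 genes in the 35 other strain pairs (grey points, mean of both temperatures, each gene's mean taken out, sorted from left to right), with the WN38 or WN80 mean and its limma SE as a diamond. For pud-2.2, F19B2.5 and clec-76 the other pairs spread over a range like that of WN38, whereas for rbm-28, bgnt-1.7 and F36H5.4 they stay near 0.

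By gene family, the MATH and BTB domain genes were well represented. Of their 126 probes, 17 (13.5%) were WN38-specific, against 1.06% of all probes, with 3 positive and 14 negative. These were mostly on chromosome II (16 of the 17). The gene btb-1, on chromosome III, had ratios of -2.84, -4.75, -10.16 and -1.52 (mean -4.81 ± 0.74). The genes math-20, math-39 and math-40 each had a pair of probes, and both were negative for each: -4.78 and -2.88 for math-20, -4.15 and -3.78 for math-39, -3.36 and -3.73 for math-40. The gene bath-28 was positive with 3.75, 7.41, 4.64 and 4.00 (mean 4.95 ± 0.89). A second probe of bath-28 did not pass (mean 2.69, limma adjusted p = 0.082). The median over the 126 probes was -0.15, against 0.01 over all probes. Without WN58/WN38 at 24 °C the count was 6 probes in place of 17, and 1 probe (math-40) held in every subset.

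The F-box genes contributed 14 of 368 probes (3.80%), 5 positive and 9 negative, with a median of 0.07 over the family. Among them fbxa-156 had the largest mean and fbxa-55 the next, with ratios of -4.78, -5.68, -10.13 and -1.78 (mean -5.59 ± 1.09). Without WN58/WN38 at 24 °C 5 probes were WN38-specific, and fbxa-156 and fbxa-216 held in every subset. The C-type lectins contributed 10 of 241 probes (4.15%), 4 positive and 6 negative, and 7 without that array. Here the lectin genes clec-72 and clec-76 led, with ratios of 3.92, 8.2, 8.68 and 5.27 for clec-72 and 4.26, 10.46, 7.57 and 5.79 for clec-76. The infection-responsive lectin gene clec-60 gave 6.38, 6.35, 5.47 and 2.80 (mean 5.25 ± 1.03). All 3 were positive on every array.

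The detoxification families each had a few members in the list, at shares above the 1.06% of all probes. Of 63 UDP-glucuronosyltransferase probes 2 (3.17%) were WN38-specific, ugt-25 and ugt-28, both negative and both present in every subset. The ratios of ugt-25 were -5.42, -5.53, -7.92 and -4.97 (mean -5.96 ± 0.79, limma adjusted p = 6.7e-06) and those of ugt-28 were -5.18, -4.61, -2.66 and -3.08. The cytochrome P450 genes had 4 of 79 probes (5.06%), with cyp-34A2 (mean -3.36) and cyp-35A1 (2.85) the largest, and the glutathione S-transferases 3 of 48 (6.25%), with gst-27 (5.76) and gst-38 (-2.90). None of these 7 probes was WN38-specific without WN58/WN38 at 24 °C. The same was true of fat-7, a stearoyl-CoA desaturase gene, the only one of 68 fatty acid metabolism probes in the list, with -2.39, -3.29, -5.51 and -5.77 (mean -4.24 ± 0.91). Its adjusted p (limma) was 0.16 without WN58/WN38 at 24 °C and 0.16 without WN38/WN47 at 24 °C.

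The nuclear hormone receptors contributed 6 of 267 probes (2.25%), 1 positive and 5 negative. The largest was nhr-244, with -6.09, -3.79, -8.93 and -2.68 (mean -5.37 ± 0.57, limma adjusted p = 2.9e-08), followed by nhr-234 (mean -3.76). Chemoreceptors, the largest family measured, contributed 4 of 1292 probes (0.31%), which is below the share over all probes. Shares near that of all probes (1.06%) came from the cuticle collagens (col-142, mean -2.51, and col-182, 2.07, or 1.18% of 169 probes), the neuropeptide receptors (dmsr-3, 2.52, 1.14% of 88), the hedgehog-related genes (grd-2, -2.26, 1.20% of 83) and the sperm genes (spe-55, -1.91, 0.943% of 106). Of these col-142 held in every subset. No probe of the heat shock, ribosomal protein, histone, neuropeptide, lysozyme, Argonaute, proteasome or respiratory chain lists was WN38-specific. These lists held only 26 to 107 probes each. At the 1.06% share over all probes few would be WN38-specific in any of them, so their absence says little. The neuropeptide list had a median of 0.59, against 0.01 over all probes.

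Markers of other stages lay lowest on 1 of the WN38 arrays. The genes of adult yolk and of sperm, which normally come on after the L3 stage, had median turned ratios of -0.24, -0.66, -0.20 and -1.97 over 29 probes, so that WN38/WN47 at 24 °C lay lowest. For the vitellogenins alone (11 probes) the medians were 0.47, -1.52, -1.37 and -3.80, and for the germline and oocyte list (16 probes) -0.09, -0.25, 0.13 and -1.20. On that array the sperm genes, spe-55 among them, had a median of -1.80. No probe of the yolk and sperm marker list passed the WN38 test, and the part of a stage difference in the list of 247 was not tested beyond leaving the array out. On the WN80 arrays the medians of the yolk and sperm markers lay between -0.53 and -0.14. The vitellogenins alone were more uneven there, with medians of -0.16 and -1.96 at 16 °C and -1.09 and 1.31 at 24 °C, WN1/WN80 before WN80/WN7. Those of the germline and oocyte list were 0.28, 0.34, -0.07 and -0.47 in the same order.

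The WN38-specific probes were unevenly placed on the chromosomes. Chromosome II held 78 of them, or 2.55% of its 3063 probes, followed by chromosome V with 59 (1.31%) and chromosome I with 30 (1.21%). Chromosomes III, IV and X had 0.765%, 0.642% and 0.348%. On chromosome I 24 of the 30 were negative. The share of probes repeatable in the 35 other pairs was highest on chromosomes V (1.49%) and II (1.21%). Without WN58/WN38 at 24 °C the counts were 31 on chromosome II (1.01%), 16 on I (0.648%), 17 on IV (0.606%) and 19 on V (0.423%), so that chromosome II remained highest by share while the rest of the order changed.

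**Figure D3:**
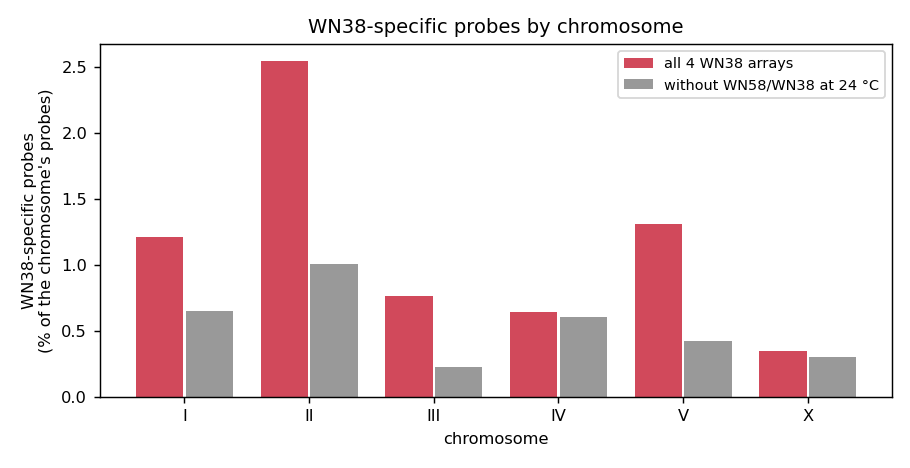
Share of each chromosome's probes that were WN38-specific (vertical axis, percent), with all 4 WN38 arrays (red) and without WN58/WN38 at 24 °C (grey). Chromosome II is highest in both, at 2.55% and 1.01%.

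Some WN38-specific genes lay near each other. With a cluster defined as 3 or more WN38-specific genes separated by at most 50 annotated genes, 109 genes fell into 16 clusters. How many would fall into clusters if equally many measured genes were drawn at random was not counted. The rule is loose for a list of this length, so these counts are not read as clustering beyond chance. With that 24 °C array of WN58/WN38 left out, there were 30 genes in 7 clusters. The longest held 30 of 310 measured genes on chromosome II, 7 positive and 23 negative, and included the math genes, duxl-1, the transient receptor potential-like gene trpl-5, cct-3, B0281.5 and ZK1240.3. Signs were mixed within short stretches of it, since B0281.5 had a mean of 7.78 and ZK1240.3 one of -7.78. Without that array 9 of the 30 genes were WN38-specific.

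The densest was on chromosome I, where 6 of 9 measured genes were WN38-specific and all negative. It held 4 nuclear hormone receptor genes, nhr-73 (mean -3.42), nhr-259 (-1.82), nhr-244 (-5.37) and nhr-245 (-3.65), with C27C7.1 (-5.08) and ZK1025.3 (-7.40) among them. For ZK1025.3 the ratios were -8.76, -6.21, -11.39 and -3.24, and for C27C7.1 -3.76, -4.95, -6.96 and -4.68. A cluster of 8 genes on chromosome V, all negative, included srw-85, M04C3.2, the aspartyl protease gene asp-17 (mean -4.21) and C25F9.4 (-5.55). On chromosome IV all 4 members of a cluster were positive: clec-72, clec-76, K08D10.10 (mean 5.32) and R07C12.1 (5.27). F-box genes stood in 8-gene and 7-gene clusters on chromosomes III and V, led by fbxa-55 and fbxa-156. Without WN58/WN38 at 24 °C, 3 of the 6 genes on chromosome I, 1 of the 8 on V and 2 of the 4 on IV were WN38-specific. Tandem paralogs may share probe binding, so neighbours of one family are not independent measurements.

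For WN80 far fewer transcripts passed. The mean over its 4 arrays differed from 0 for 14 probes (0.0603%; limma adjusted p below 0.05), and 12 of these (0.0517%) had 1 turned sign on all 4 arrays, 1 positive (0.0043%) and 11 negative (0.0473%). Of the 12, 8 carried a gene name. The probes with 1 sign, called or not, numbered 2921 (12.6%). The count was 11 without WN1/WN80 at 16 °C, 86 without WN80/WN7 at 16 °C, 21 without WN1/WN80 at 24 °C and 22 without WN80/WN7 at 24 °C, and 3 probes held in every subset: Y49G5A.1, btb-14 and a probe without a gene name. The same 3 (0.0129%) passed in both WN80 pairs on their own. The test at this number of arrays left 1315 probes at an unadjusted p below 0.05, against 2428 for WN38. If no probe differed, chance alone would put a share of about 0.05 of the 23232 tested probes below that bound. The WN80 count was little above that share, so it is not read as a number of missed differences.

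The strongest named gene was nlp-4, which encodes a neuropeptide-like protein. Its ratios were -7.05 and -6.07 at 16 °C and -4.58 and -6.41 at 24 °C, with WN1/WN80 first and WN80/WN7 second (mean -6.03 ± 0.94, n = 4 arrays; limma adjusted p = 4.0e-04). It lost its call without WN1/WN80 at 16 °C (mean -5.26, limma adjusted p = 0.058). On the WN38 arrays nlp-4 had a mean of -0.19, and the difference between the strains passed (5.84, limma adjusted p = 0.017).

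Y49G5A.1 gave -6.13, -5.90, -4.31 and -4.32 on the WN80 arrays (mean -5.17 ± 0.65, limma adjusted p = 7.3e-06), with the pair of values at each temperature nearly equal. The BTB domain gene btb-14 gave -4.60, -2.51, -2.98 and -4.21 (mean -3.58 ± 0.54, limma adjusted p = 2.4e-04). It also passed for WN38 with the other sign (mean 2.78), but there 1 array had a ratio of -0.62, and the 2 strains differed by 6.35 (limma adjusted p = 6.8e-07). The other named genes were K02F6.4 (mean -3.70), K03D3.2 (-3.60), T25D1.2 (-3.38), exh-1 (-2.47) and aman-1, an alpha-mannosidase gene (-1.56). Each of these 5 lost its call when 1 of several arrays was left out. For T25D1.2, a probe with ratios from -1.31 to -6.58, the 2 further probes had means of -0.67 and -0.76 and did not pass. The 12 probes showed no cluster of neighbouring genes, and btb-14 and nlp-4 were the only members of the listed families.

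**Figure D4:**
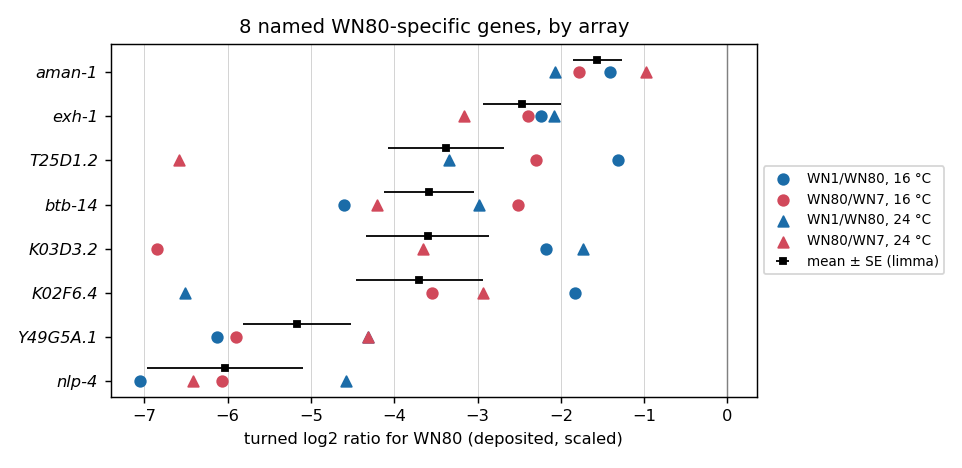
Turned log2 ratios (horizontal axis, deposited scaled units) of the 8 named WN80-specific genes, with one coloured symbol per array and a black square for the mean with its limma SE. All values are negative, from -0.98 for aman-1 to -7.05 for nlp-4.

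Most WN80-specific probes also varied between other pairs. Of the 12 probes, 10 (83.3%) were among the 183 probes with a repeatable strain difference over the 35 other pairs. At 0.5 times their size, 10 were reached by 5 or more of those pairs, a count that was not made over all probes. For Y49G5A.1 it was 10 pairs and for nlp-4 13, with other-pair ranges of -5.06 to 6.47 and -5.19 to 7.14. Of the 183 repeatable probes, 73 (39.9%) had 1 turned sign on the WN80 arrays. The share over all probes was 12.6%, which is no like baseline, since the 183 were picked for repeating between temperatures. The turned ratios of the 183 correlated between the WN80 arrays with r from 0.34 to 0.716.

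The strains were then compared with each other. The WN38 and WN80 means differed for 146 probes (0.628%, limma), among them 92 of the 247 WN38-specific and 5 of the 12 WN80-specific probes. The count was 256 without WN58/WN38 at 16 °C, 95 without it at 24 °C, 67 without WN38/WN47 at 16 °C, 77 without WN1/WN80 at 16 °C and 87 without WN80/WN7 at 24 °C. A call in one strain therefore did not by itself separate the strains: for 188 of the 298 probes called for WN38, the difference did not pass. The 188 were counted whether or not WN80 was called, and 4 probes were called for both strains. The pud genes were separated, with means of -10.09 and 3.40 for pud-2.2 (difference -13.49, limma adjusted p = 2.2e-09), as was B0281.5, with 7.78 and -5.39 (difference 13.17, limma adjusted p = 1.1e-05). The cct-3 means of -6.21 and 4.07 differed as well (limma adjusted p = 3.7e-06). In contrast, clec-72 and clec-76 were positive on all 8 arrays, with WN80 means of 3.70 and 4.78 that did not pass by themselves (limma adjusted p = 0.21 and 0.11). Their differences between strains were 2.82 and 2.24 (limma adjusted p = 0.78 and 0.94). Both strains shared 2 specific probes, neither with a gene name, which are 0.81% of the WN38 list and 16.7% of the WN80 list. Both were negative in both strains.

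Taken one strain pair at a time, the calls were unequal. WN58/WN38 alone gave 379 probes (1.63%), WN38/WN47 52 (0.224%), WN1/WN80 20 (0.0861%) and WN80/WN7 35 (0.151%). A pair alone was tested against 0, so a dye effect of the probe stays in these counts. Set against the mean of the remaining pairs, WN58/WN38 had 267 calls and ranked first of the 39 pairs, WN38/WN47 had 41, WN80/WN7 31 and WN1/WN80 15, whereas the 35 other pairs had between 1 and 188 with a median of 28. The mean of WN58/WN38 and WN38/WN47 on the deposited dye order, from which WN38 cancels and which leaves its partners against each other, passed for 6 probes (0.0258%; 997 at an unadjusted p below 0.05). For WN80 the same comparison passed for 0 probes in limma (854 at an unadjusted p below 0.05). Both unadjusted counts, 997 and 854, were below the share of about 0.05 of all probes that chance alone would give. This comparison is a mean over the pairs, so it holds the difference between the partners at reduced size. The strain mean holds the strain's difference from the mean of its partners in full. The counts of 6 and 0 are therefore not set against the strain counts, and they do not show that the partners were alike. For WN38 the number of passing probes was 134 without WN58/WN38 at 16 °C and 49 without the same pair at 24 °C. It was 48 without WN38/WN47 at 24 °C and 0 without WN38/WN47 at 16 °C. For WN80 it was 56 without WN80/WN7 at 16 °C, 24 without that pair at 24 °C and 42 without WN1/WN80 at 24 °C.

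Did the strain differences hold from 16 °C to 24 °C? The mean turned ratios at the 2 temperatures were close for many leading WN38 genes: -10.03 and -10.15 for pud-2.2, -7.49 and -7.31 for ZK1025.3, 7.33 and 7.48 for R07C12.2 and -2.55 and -2.46 for col-142. None of the 247 WN38-specific probes passed the test of the difference between temperatures, in a list whose rule asked for 1 sign at both. The SE of that difference was 1.7 for pud-2.2 and 1.47 for ZK1025.3. A difference well above its SE could still fail the test, as for K02F6.4 in WN38 (-3.01 ± 1.34, limma adjusted p = 0.75). Absence of a call therefore does not show equal ratios at both temperatures. For fat-7 the means were -2.84 and -5.64, and the difference of -2.80 ± 1.77 did not pass (limma adjusted p = 0.97). Y49G5A.1 and nlp-4 in WN80 had means of -6.02 and -6.56 at 16 °C and -4.32 and -5.49 at 24 °C.

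Over all probes, 13 changed between temperatures for WN38 (0.056%; 10 higher and 3 lower at 24 °C in turned ratio) and 32 for WN80 (0.138%; 9 higher and 23 lower). None of the 13 or the 32 was repeatable over the 35 other pairs. Only 0.788% of all probes were, so an absence among so few says little about them. For 8 of the 13 and 18 of the 32, both partner arrays had one sign at 16 °C and both the other at 24 °C. These probes were picked for a large difference between temperatures, and the share over all probes was not counted. Chemoreceptor genes made up 4 of the 13 in WN38 and 2 of the 32 in WN80, against 5.56% of all probes. Among them srbc-63 gave -2.81 and -2.83 at 16 °C and 7.14 and 1.58 at 24 °C (difference 7.18 ± 1.29, limma adjusted p = 0.015), and sru-42 gave -6.53, -2.19, 5.46 and 0.07 (7.13 ± 0.90, limma adjusted p = 2.7e-05). The third, srv-34, had -0.62, -1.61, 10.01 and 1.86. In all 3 the highest value was WN58/WN38 at 24 °C, the array that stood apart, and without it the difference rests on 1 array at 24 °C.

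In WN80, K08H2.3 had 6.52 and 4.62 at 16 °C and -1.16 and -3.77 at 24 °C (difference -8.04 ± 1.33), a reversal seen against both partners. ZC395.5 went from -0.15 and -5.69 to 5.09 and 3.96 (7.45 ± 1.65). C55A6.8 gave 10.62, 0.42, 0.12 and -4.58 (-7.75 ± 1.29), so that 1 array at 16 °C carried much of its difference. One WN80-specific probe, without a gene name, also passed the temperature test, with ratios of 0.40, 9.64, 0.93 and 1.05.

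**Figure D5:**
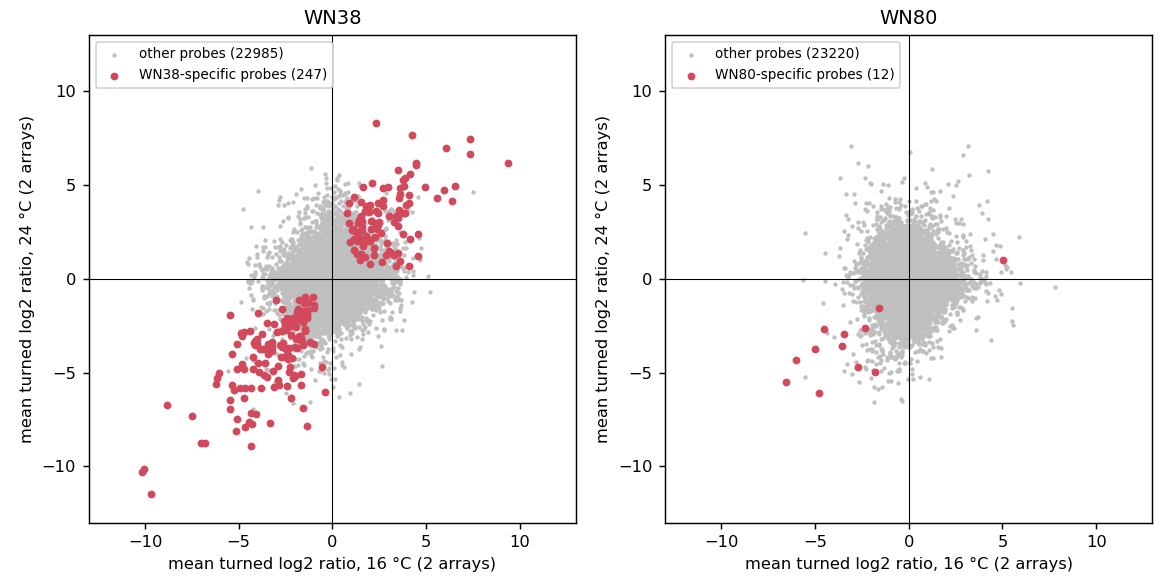
Mean turned log2 ratio at 24 °C (vertical axis) against that at 16 °C (horizontal axis), each over 2 arrays, for all 23232 probes, with specific probes in red. The 247 WN38-specific probes fall in 2 opposite quadrants by their rule and extend to about -10 at both temperatures, whereas the 12 WN80-specific probes are few and 11 of them are negative.

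Several genes discussed in the study were looked up by name. The paper places flp-9, C17H11.1, nmur-1, sphr-1 and frpr-15 in a group controlled from a shared region on chromosome V. It reports that most of this group had a strong genetic effect only at 24 °C. It discusses npr-1 for amino acid mutations of the receptor. The strain means here average both temperatures, and alleles at that region were not used, so they do not bear on the paper's mapping. The FMRFamide-like peptide gene flp-9 had means of 0.45 for WN38 and 0.52 for WN80, and npr-1, the neuropeptide receptor gene known for its difference between solitary and social feeders, 0.45 and 0.52. The means of C17H11.1 were 0.66 and 0.37, those of nmur-1, a neuromedin U receptor gene, 0.28 and 0.23, those of sphr-1 0.48 and 0.50, and those of frpr-15 0.66 and 0.15. None passed for either strain, with limma adjusted p of at least 0.72 for WN38. Each had a higher turned mean at 24 °C than at 16 °C in both strains. In WN38 it went from -0.34 to 1.24 for flp-9, from -0.42 to 1.38 for sphr-1 and from -0.61 to 1.18 for nmur-1. For C17H11.1 it went from -0.08 to 1.41, for frpr-15 from -0.10 to 1.42 and for npr-1 from 0.14 to 0.76. None of these differences passed the temperature test (limma adjusted p of at least 0.75 in WN38 and 0.63 in WN80). How many of all probes rose in both strains was not counted, so the rise is not read as a trait of these genes. Over 107 neuropeptide probes the WN38 medians were 0.64 and 0.01 at 16 °C, then 0.61 and 0.94 at 24 °C. Those of WN80 were -0.02, -0.38, 1.09 and 0.66. Over 88 neuropeptide receptor probes the WN38 medians were 0.11, 0.06, 0.02 and 0.63. For WN80 they were -0.11, 0.07, 0.45 and 0.19.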

How the data were processed

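RNA of whole L3 larvae was hybridised on two-colour 60-mer arrays, RI strain against RI strain, with 40 arrays per temperature. The values are log ratios that the authors normalized before they deposited them, taken as log2, the base limma uses, since the submitters' processing notes list that package (without a version). Which steps were run, which base was used and which dye is the numerator are not given in the sources used here. With no intensities used, how far a signal lay above background is unknown, and precision is set by how many arrays there were. Gene names came from the platform's probe table (17447 of 23232 probes with 1 name), and gene order from assembly WBcel235, with 17358 probes joined by gene identifier.

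All 80 arrays entered 1 limma model (limma 3.58.1, R 4.3.3) with a coefficient for each of 41 dye-ordered strain pairs and 1 for temperature (38 residual degrees of freedom). The strain mean was 0.5 times the difference of the shared strain's pairs, the partner comparison the mean of those pairs against the other pairs, and the temperature test used 24 °C minus 16 °C per pair, over 39 pairs. P-values are two-sided and adjusted by Benjamini-Hochberg over all probes. Repeatability used Pearson r across the 35 other pairs. Scripts were tested on simulated data. Figures were drawn with Python 3.11.15 and matplotlib 3.10.9.

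Genes were named by rule: the largest specific means per strain (15 at most), 3 probes not reached by other pairs, 3 genes per temperature test, up to 2 per gene list (by symbol prefix) and 6 genes of the study. Cluster members, second probes and further list members named beside them were singled out after their values were seen. Members and lists were chosen with earlier results of these data known. Alternatives were scaling of each array, removal of principal components, a threshold of 0.01, robust variance moderation, the 8 arrays alone, each strain pair alone, leaving out the widest pair and leaving out each array.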

Additional observations from a re-analysis of the deposited data

Results flagged for a closer look

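For each named gene, the 4 turned ratios of a strain were searched for 1 value standing off from the other 3 (gap to the nearest value over the whole range, against Dixon's value for 4 values). Chance flags about 1 in 20 such groups, and 62 groups were examined with 4 flags. For rbm-28 in WN38 the ratio was 0.888, with WN38/WN47 at 24 °C (-1.81) nearer to 0 than the other 3. For col-182 in WN38 it was 0.864, with WN38/WN47 at 16 °C high (4.25 against 1.06 to 1.5). For nmur-1 in WN80 it was 0.846 and for C17H11.1 in WN80 0.834, each with 1 array apart.

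Another 6 genes were named because they led the test of 24 °C against 16 °C (limma, adjusted over all probes), so their passing it here is no separate evidence. In WN38 the differences were 7.13 for sru-42, 7.18 for srbc-63 and 7.05 for srv-34, all chemoreceptor genes. In WN80 they were -8.04 for K08H2.3, 7.45 for ZC395.5 and -7.75 for C55A6.8. In the 35 other pairs the ratio at 24 °C minus that at 16 °C, with each gene's mean taken out, ranged from -3.02 to 3.41 for sru-42, from -4.97 to 3.22 for srbc-63 and from -8.14 to 2.90 for srv-34. It ranged from -3.66 to 4.48 for K08H2.3, from -5.47 to 6.53 for ZC395.5 and from -3.35 to 4.83 for C55A6.8, so only srv-34 had another pair beyond its own size.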

How the results depend on the processing

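With 8 arrays and 4 per strain, precision is limited by the number of arrays, and signal over background is unknown. Scaling each array and robust moderation kept all 7 counts of calls within 1.5 times (305 and 287 for WN38, 14 and 13 for WN80). Removing the first 2 principal components per temperature gave 154 calls for WN38 and 20 temperature calls for WN80. It also ended the call of 12 named genes: clec-76, col-142, col-182, fat-7, ZC204.12, cyp-34A2, gst-38 and spe-55 in WN38 and aman-1, T25D1.2, K02F6.4 and exh-1 in WN80, where 6 of the 14 calls were shared. At an adjusted p below 0.01 there were 146 for WN38, 5 for WN80, 2 for the WN38 partners, 1 and 4 for temperature in WN38 and WN80 and 75 for the difference between strains. Without WN3/WN22, WN80 had 33. The 8 arrays alone gave 17, 3 and 1 for the difference, and the rule that both pairs pass gave 21 and 3. The causes were not tested, except that the 8 arrays alone leave few residual degrees of freedom.

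Leaving out 1 array at a time gave 110 to 528 calls for WN38 and 14 to 139 for WN80. The WN38-specific probes numbered 108 to 382 and the WN80-specific ones 11 to 86, an alternative chosen after seeing the data. The partner comparisons gave 0 to 134 for WN38 and 0 to 56 for WN80, and the difference between strains 67 to 256. For the strain means of WN38, the extremes were without WN38/WN47 at 16 °C (110) and without WN58/WN38 at 16 °C (528), with 183 without WN58/WN38 at 24 °C; 89 of these 183 were among the 298. The temperature tests were not run without an array, since a pair then has no difference.

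The sign of the mean turned only for genes whose mean did not pass with all arrays. Removing the principal components gave -0.10 for nmur-1, -0.24 for sphr-1 and -0.26 for flp-9 in WN38, and -0.02 for C17H11.1 and -0.01 for frpr-15 in WN80. Leaving out 1 array at a time gave the following lowest and highest means. In WN80 they were -0.64 and 3.74 for K08H2.3, -1.05 and 4.34 for C55A6.8, -1.56 and 3.16 for ZC395.5, -0.28 and 0.73 for nmur-1, -0.19 and 1.22 for npr-1 and -0.20 and 0.50 for frpr-15. In WN38 they were -3.92 and 2.32 for sru-42 (limma adjusted p = 4.1e-05 and 0.012), -1.79 and 3.32 for srbc-63, -0.26 and 5.07 for srv-34, -0.41 and 0.98 for nmur-1, -0.28 and 1.25 for sphr-1 and -0.07 and 0.97 for flp-9. The arrays of a strain pair at both temperatures are matched in the model by the pair's coefficient.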
